A study of Mus musculus with 8 samples.

Results

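The Rab genes encode small GTPases, the largest family of Ras-like switches of membrane traffic. They were taken here as the gene symbols made of Rab, a number and at most 1 further letter and digit, with at least 80 counts summed over all 8 libraries. Of 59 such symbols 44 met that sum and are called members, out of 53647 genes in the table, and all 44 are annotated as protein coding. The rule used total counts only, without regard to group. By their own sums, 42 members reached 80 counts in both groups, Rab36 reached it in Mac alone, and Rab4a in neither group alone. Just inside the limit stood Rab4a and Rab2b with 126 and 172 counts, and just outside it Rab38 with 75 and Rab15 with 44.

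A Rab protein is switched on when an exchange factor (GEF) loads it with GTP, and off when a GTPase-activating protein (GAP) speeds up hydrolysis. Escort proteins present it for prenylation, which anchors it in membranes. While active on a membrane it recruits effectors such as tethers, motors and adaptors. In macrophages Rab5 marks early endosomes and new phagosomes, Rab7 the late compartments that fuse with lysosomes, and Rab27 and Rab3 proteins serve granule release.

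PolyA RNA of C57BL/6 mouse leukemia macrophages had been sequenced in 2 groups of 4 libraries, each from cells sorted after 12 h of culture. Mac were macrophages kept alone. E-Mac, short for MSC-educated macrophages, had shared the culture with mesenchymal stromal cells (MSC), the fibroblast-like support cells of marrow. The sources used here do not give the number of animals or cultures, the origin of the MSC or the markers of the sort, and p-values thus reflect no more than the spread among the libraries, which may be technical. Libraries held 11646025 to 15740846 counts.

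All 15 macrophage markers were detected, with a summed level of 13500 to 14700 CPM in Mac and 9580 to 13000 in E-Mac. CPM are counts per 1000000, scaled by edgeR's TMM factors. Granulocyte markers were also abundant, with all 17 detected and sums of 33400 to 37200 CPM in Mac against 10900 to 17300 in E-Mac. Stromal markers summed to 10 to 12.4 CPM in Mac, to 73.9 and 54.5 in E-Mac 1 and 3, and to 406 and 446 in E-Mac 2 and 4, and 3 of the 16 were at 0 in all Mac libraries. In such bulk libraries, fewer cells of a type and less RNA per cell cannot be told apart. The part of these cell types in the Rab results was not tested beyond leaving out E-Mac 2 and 4.

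RefSeq promoter windows on GRCm38.p6 were matched by symbol and used for 37 of the 44 members. None was used for Rab2a, Rab4a, Rab7b, Rab18, Rab36, Rab37 and Rab44. The 250 bases before the start are shown for the Rab5 subfamily, whose 3 genes differed in response, and for Rab11a, which rose and whose window held a searched motif and almost no annotated exon. Capitals mark the searched motif, and each sequence runs 5′ to 3′ on the gene's strand.
Rab5a, chr17:53478984-53479233, plus strand, TCACGTGA starting at base -96: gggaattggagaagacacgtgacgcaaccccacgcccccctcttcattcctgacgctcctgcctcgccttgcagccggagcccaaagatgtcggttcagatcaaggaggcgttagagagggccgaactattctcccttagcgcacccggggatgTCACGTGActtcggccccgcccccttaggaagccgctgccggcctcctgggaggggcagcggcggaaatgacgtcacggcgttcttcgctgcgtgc
Rab5b, chr10:128696269-128696518, minus strand, no searched motif: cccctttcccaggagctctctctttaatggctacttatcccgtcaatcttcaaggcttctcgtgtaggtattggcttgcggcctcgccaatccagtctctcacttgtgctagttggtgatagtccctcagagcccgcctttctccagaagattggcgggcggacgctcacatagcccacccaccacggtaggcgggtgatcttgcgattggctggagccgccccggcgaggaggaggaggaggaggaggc
Rab5c, chr11:100738216-100738465, minus strand, no searched motif: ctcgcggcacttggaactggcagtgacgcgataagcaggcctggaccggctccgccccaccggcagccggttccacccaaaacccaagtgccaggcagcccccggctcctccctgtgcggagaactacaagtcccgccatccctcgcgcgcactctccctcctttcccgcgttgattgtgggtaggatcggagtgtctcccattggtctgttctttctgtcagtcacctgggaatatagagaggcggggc
Rab11a, chr9:64737757-64738006, minus strand, TTCNNNGAA starting at base -199: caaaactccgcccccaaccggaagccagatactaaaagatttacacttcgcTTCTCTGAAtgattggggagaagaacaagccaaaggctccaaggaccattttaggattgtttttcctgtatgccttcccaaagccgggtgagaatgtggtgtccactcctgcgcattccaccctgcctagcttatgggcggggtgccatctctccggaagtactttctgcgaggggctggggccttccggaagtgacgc

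Motif patterns were searched on both strands of these windows. The interferon-type pattern GAAANNGAAA was in 1 of the members' 45 windows (2.22%) and in 2.98% of all 32851 windows. For the STAT-type TTCNNNGAA the shares were 4.44 and 7.02%, for the NF-kB-type GGGNNTTTCC 4.44 and 1.41%, and for the hypoxia-type TACGTG 2.22 and 2.72%. The lysosomal-gene pattern TCACGTGA gave 4.44 and 0.785%, and the PU.1-type GAGGAAGT 4.44 and 2.44%. No pattern was in more than 2 of the members' windows. The members' windows had a median GC content of 62.8% (44 to 80.8) against 52.4% over all windows, with 6 of the 45 below the latter. A match of letters is a description and not a binding site.

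Rab transcripts were on the whole somewhat more abundant in E-Mac, although most members moved by well under 2-fold. Rab7b and Rab20 rose most, and Rab36 fell most. All 44 members passed the filter on low counts and were tested with edgeR's quasi-likelihood test on the whole table. At a Benjamini-Hochberg adjusted p under 0.05 over 13412 genes, 28 members differed (63.6%, against 58.3% of all genes tested). Of these 21 were higher in E-Mac (29.5% of all genes were) and 7 lower (28.8% of all genes were). The groups did not overlap in 25 members, and in 53.9% of all genes. Only Rab7b, Rab20 and Rab36 were past the threshold with 2-fold or more, which 20.1% of all genes were. The median log2 fold change of the 44 was 0.24, against 0.00 over all genes tested, and the median size of the change was 0.34 against 0.43.

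The split between directions depended on how libraries were scaled. With TMM factors 75.0% of the members' calls were higher, with upper-quartile factors 62.5% (15 higher, 9 lower), and with library totals alone 52.0% (13 higher, 12 lower). The share of higher calls over all genes moved too, at 50.6, 41.8 and 37.4% under these scalings. Scaling by totals alone moved the median of all genes by -0.144. Without Mac 2, Mac 3 or E-Mac 1, 4 members were lower in place of 7. Without E-Mac 2 and 4, 20 members were higher and 10 lower. The summed level of all 44 members was 4342, 4403, 4328 and 4345 CPM in Mac 1 to 4, and 5425, 5711, 5590 and 5342 CPM in E-Mac 1 to 4.

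**Figure D1:**
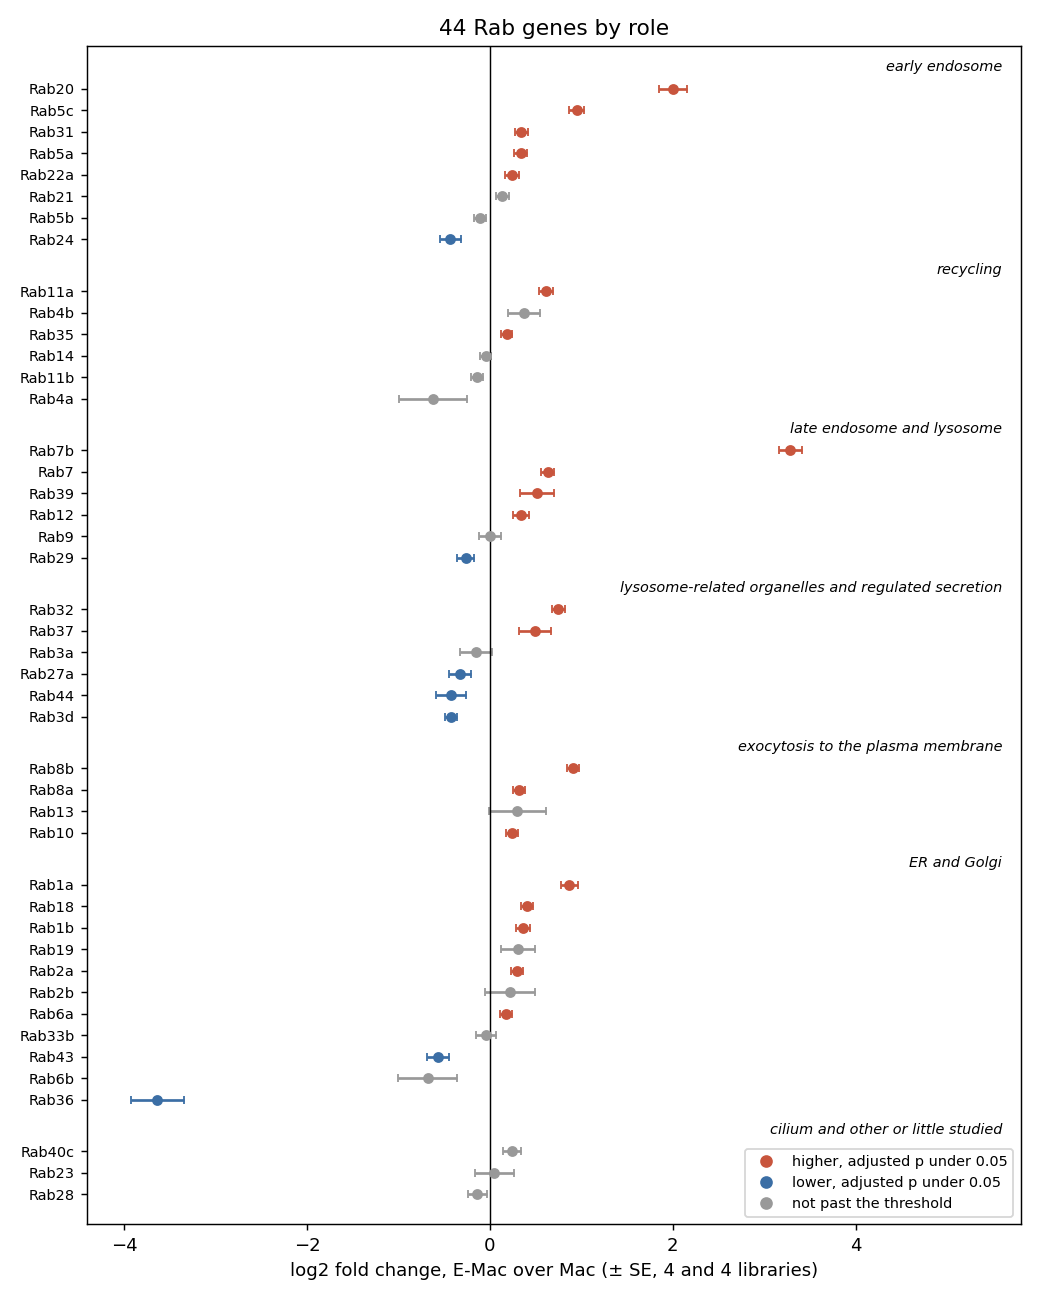
The log2 fold change of each of the 44 members, E-Mac over Mac, with its standard error (4 and 4 libraries), grouped by the compartment each Rab is known for. Red points were higher and blue points lower at an adjusted p under 0.05, grey points did not pass; Rab7b (3.29), Rab20 (2.0) and Rab36 (-3.64) lie apart from the other members.

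By level per kilobase of annotated exon, which allows genes to be compared, the family was led by the Rab7 gene of late endosomes, at 123 ± 6.70 CPM per kb in Mac (SD, n = 4), and by Rab5c at 121 ± 6.06. These 2 levels lay within each other's spread. The granule-associated Rab44 followed in Mac at 112 ± 11.5 CPM per kb and the secretory-pathway Rab1b at 73.4 ± 5.88. In E-Mac, Rab5c had the highest level at 233 ± 25.1 CPM per kb, before Rab7 at 191 ± 10.4 and Rab32 at 105 ± 7.66. Rab44, next after those 2 in Mac, was at 83.1 ± 21.5 CPM per kb in E-Mac. The lowest levels were those of Rab2b in Mac (0.325 ± 0.0638 CPM per kb) and Rab36 in E-Mac (0.148 ± 0.0939). The level of Rab2b is uncertain, since 59.3% of its exon bases overlap the opposite-strand model Gm43766 (0 to 6 counts in a library) and 4.68% Tox4 (1003 to 1732 counts). Fold changes below are log2, E-Mac over Mac, ± standard error, while CPM means are given ± SD of 4 libraries.

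Of the 8 early endosome members 5 rose and 1 fell (75% called, against 58.3% of all genes tested). Over all genes tested, 29.5% were higher and 28.8% lower in E-Mac. The groups by compartment are small, and their counts were not tested. Rab5c, one of 3 Rab5 genes that drive fusion of early endosomes, was at 251, 283, 264 and 263 CPM in Mac 1 to 4 and at 538, 512, 561 and 434 CPM in E-Mac 1 to 4. Every E-Mac library was well above every Mac library (0.95 ± 0.08, adjusted p = 5.75e-07). Rab5a rose less, from 66.2 ± 4.21 to 83.6 ± 3.63 CPM (0.34 ± 0.07, adjusted p = 0.00094). Mac libraries ran from 62.5 to 71.0 CPM and those of E-Mac from 79.1 to 87.9, without overlap. Rab5b went the other way without passing, with 137, 127, 132 and 131 CPM in Mac and 116, 131, 112 and 130 in E-Mac (-0.11 ± 0.07, adjusted p = 0.203). Of its E-Mac libraries, 2 and 4 lay within the Mac range, and without those libraries the value was -0.20 (adjusted p = 0.0073). It also passed with upper-quartile factors (-0.20, adjusted p = 0.0285) and with totals alone (-0.25, adjusted p = 0.00816). Of the Rab5 transcripts per kb, Rab5c made up 72, 74.9, 73.5 and 72.9% in the 4 Mac libraries, in order, and 84.9, 83.0, 85.8 and 81.2% in E-Mac 1 to 4.

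Rab20, which acts in the maturation of phagosomes, had 8.57, 10.5, 7.13 and 11.0 CPM in Mac and 42.1, 38.5, 38.8 and 28.9 CPM in E-Mac. The groups were far apart (2.0 ± 0.15, a 4.0-fold rise, adjusted p = 1.32e-07), and E-Mac 4 was the lowest of its group. On mm10 the gene lies on chromosome 8, 11453518 to 11478710. An antisense-strand gene model, E230013L22Rik, shares 25.6% of its exon bases and had 2 to 24 counts in a library, against 116 to 576 for Rab20. The related sorting Rabs Rab31 (0.34 ± 0.07) and Rab22a (0.24 ± 0.08) also rose, with groups that did not overlap (adjusted p = 0.000626 and 0.0146). The Rab22a call was lost with upper-quartile factors (0.14, adjusted p = 0.106) and totals alone (0.09, adjusted p = 0.306). Rab21, which follows integrins into endosomes, did not pass (0.14 ± 0.07, adjusted p = 0.12). Rab24, linked to autophagy, had 20.8, 19.1, 17.6 and 20.2 CPM in Mac and 15.2, 14.0, 16.2 and 12.1 in E-Mac (-0.43 ± 0.11, adjusted p = 0.00534), all below Mac. That value is uncertain: 62.4% of Rab24 exon bases overlap the opposite-strand gene Prelid1, which had 2288 to 4386 counts in a library, and the sources used here do not give the strand setting of the counting.

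In the late endosome and lysosome group 4 of 6 members rose and 1 fell (83.3% called, against 58.3% of all genes). Rab7b is a late endosomal Rab distinct from Rab7, known to influence the turnover of Toll-like receptors in macrophages. Its level was 18.6, 20.1, 19.8 and 21.1 CPM in Mac and 224, 187, 221 and 145 CPM in E-Mac. This was the largest rise of the family, 9.75-fold (3.29 ± 0.13, adjusted p = 5.45e-10), with no E-Mac library under 145 CPM. The summed level of 5 megakaryocyte and platelet markers had the same order within E-Mac, with 249, 175, 237 and 123 CPM against 42.5 to 48.8 in Mac. In that list Pf4 (167, 109, 166 and 64.5 CPM in E-Mac) and Ppbp (58.8, 34.9, 52.7 and 23.2) were high, while Itga2b was lower in E-Mac (18.7 to 35.5 CPM) than in Mac (39.9 to 46.2) and Gp9 was at most 0.43 CPM. The 5 endothelial markers summed to 80 to 91.7 CPM in Mac and 188 to 256 in E-Mac, with a different order. Most of that sum was Pecam1 (76.7 to 88.3 CPM in Mac, 125 to 203 in E-Mac) and Kdr (2.5 to 2.83, and 44.4 to 63.5). Cdh5 rose but was at most 3.59 CPM, Tek was at most 0.373 CPM, and Emcn was at 0 in E-Mac. The part of these marker lists in the Rab7b result was not tested. It remained at 3.14 to 3.49 under every alternative that was run, those without single libraries and without E-Mac 2 and 4 included. The gene lies on chromosome 1, 131688695 to 131715439 (mm10, plus strand).

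Rab7 itself, which drives fusion of late endosomes and phagosomes with lysosomes, was at 299, 326, 323 and 341 CPM in Mac and 502, 511, 523 and 460 in E-Mac. It rose by a smaller factor (0.63 ± 0.07, 1.55-fold, adjusted p = 5.17e-06) from a far higher level, and the groups did not overlap. Of the summed Rab7 and Rab7b transcripts per kb, Rab7b made up 3.39, 3.37, 3.34 and 3.38% in the 4 Mac libraries, in order, and 20.1, 17.1, 19.2 and 15.1% in E-Mac 1 to 4. The 4 Mac libraries were nearly equal in this share while E-Mac varied. Rab12, which guides receptors to lysosomes, rose as well (0.34 ± 0.09, adjusted p = 0.00631; 0.19 with totals alone, adjusted p = 0.0854).

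Rab39, a Rab of phagosome acidification, had 8.26, 6.08, 9.77 and 7.40 CPM in Mac and 9.59, 11.6, 8.96 and 15.1 CPM in E-Mac. The groups overlapped, with E-Mac 4 the highest (0.51 ± 0.19, adjusted p = 0.0308), and without E-Mac 2 and 4 the value was 0.23 (adjusted p = 0.286). Single libraries also decided the call: leaving out Mac 1, 2 or 4 or E-Mac 2 or 4 gave adjusted p-values of 0.0535 to 0.0986. So did the scaling, with 0.42 under upper-quartile factors (adjusted p = 0.0774) and 0.37 under totals alone (adjusted p = 0.114). Rab29, a Golgi and lysosome Rab known as a partner of the kinase LRRK2, had 36.8, 44.2, 41.9 and 39.3 CPM in Mac against 30.1, 35.3, 36.4 and 32.8 in E-Mac. All E-Mac libraries were lower, by a narrow margin (-0.27 ± 0.09, adjusted p = 0.0216). That call was lost without Mac 2, Mac 3 or E-Mac 1 (adjusted p = 0.086, 0.0617 and 0.0677). Rab9, which returns mannose-6-phosphate receptors to the Golgi, was level, at 22 ± 2.06 and 22 ± 3.13 CPM.

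**Figure D2:**
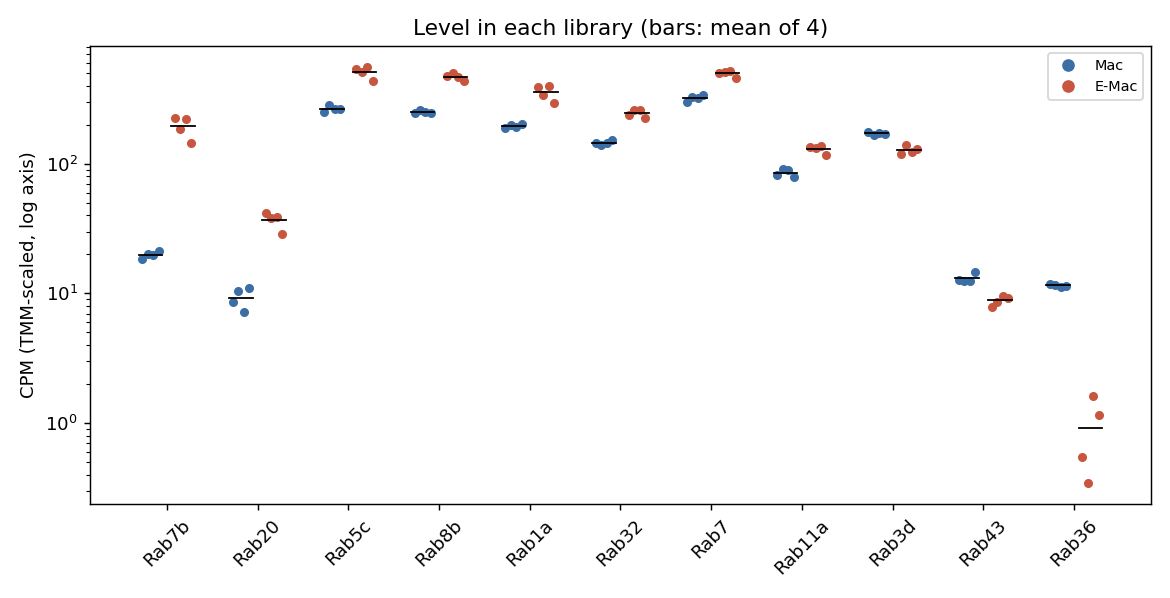
CPM on a log axis for 11 members, 1 point a library, with Mac in blue, E-Mac in red and a bar at the mean of 4. The groups of each of these members do not overlap; Rab7b goes from about 20 CPM in Mac to between 145 and 224 CPM in E-Mac, and Rab36 goes below 2 CPM.

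Members tied to lysosome-related organelles and regulated secretion moved both ways, 2 up and 3 down of 6 (83.3% called, against 58.3% of all genes). Rab32, which sorts cargo to such organelles, had 144, 140, 146 and 154 CPM in Mac and 236, 260, 261 and 225 CPM in E-Mac. All E-Mac libraries were higher, with little spread (0.75 ± 0.07, adjusted p = 9.78e-07). Its close relative Rab38 fell under the sum of 80 and was not a member, with 61 counts in Mac and 14 in E-Mac.

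Rab3d, a Rab of secretory granules, had 177, 168, 173 and 171 CPM in Mac and 119, 140, 124 and 130 CPM in E-Mac. Every E-Mac library was lower (-0.43 ± 0.07, adjusted p = 9.34e-05). Rab44, an unusually large Rab with a role in granule release, had 627, 580, 571 and 487 CPM in Mac and 306, 459, 366 and 554 in E-Mac. The groups overlapped, since E-Mac 4 lay above Mac 4 (-0.43 ± 0.16, adjusted p = 0.0411). Rab27a, which docks granules at the plasma membrane, showed the same order among E-Mac libraries, with 136, 197, 151 and 215 CPM against 222, 212, 220 and 223 in Mac (-0.32 ± 0.12, adjusted p = 0.0373). In Rab27a only E-Mac 4 reached into the Mac range.

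Without E-Mac 2 and 4 the falls were -0.75 for Rab44 (adjusted p = 0.00037) and -0.60 for Rab27a (adjusted p = 1.5e-09). With no filter on low counts both calls were lost (adjusted p = 0.129 for Rab27a and 0.217 for Rab44). A filter of 1 CPM in 4 libraries lost them too (adjusted p = 0.067 and 0.0631). Rab44 also missed the threshold with RLE factors (adjusted p = 0.05). Both calls were fragile when single libraries were left out. That of Rab27a was lost without any 1 of Mac 1 to 4, E-Mac 1 or E-Mac 3 (adjusted p = 0.0734 to 0.111), and that of Rab44 without Mac 1, Mac 2, Mac 3, E-Mac 1, E-Mac 2 or E-Mac 3 (adjusted p = 0.0654 to 0.12). Rab37, known from mast cell and macrophage secretion, had 25.3, 22.7, 19.8 and 20.6 CPM in Mac and 21.8, 31.7, 27.3 and 43.1 CPM in E-Mac (0.49 ± 0.18, adjusted p = 0.0309). E-Mac 4 alone stood far above, and without E-Mac 2 and 4 the value was 0.16 (adjusted p = 0.249). The Rab37 call was also lost without Mac 2, Mac 3, Mac 4, E-Mac 2 or E-Mac 4 (adjusted p = 0.058 to 0.0844). It was lost as well with upper-quartile factors (0.40, adjusted p = 0.0888), totals alone (0.35, adjusted p = 0.119) and no filter (0.52, adjusted p = 0.0777).

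Rab44, Rab27a and Rab37 were each higher in E-Mac 2 and 4 than in E-Mac 1 and 3, by 1.51, 1.43 and 1.52 times. The split was not particular to granule Rabs: Rab39 (1.44 times) and Rab6b (2.13 times, on 12 to 35 counts in an E-Mac library) had it too. Rab3d, itself a granule Rab, had it by only 1.11 times. The granulocyte sum was also higher in E-Mac 2 and 4, with 10900, 17300, 11500 and 15000 CPM in E-Mac 1 to 4. So was the stromal sum, although neither sum ranked the 4 E-Mac libraries as Rab44, Rab27a and Rab37 did. By gene, 10 of the 17 granulocyte markers were higher in both E-Mac 2 and 4, and 5 were lower in both, among them Elane (66, 27.9, 70.6 and 51.8 CPM) and Mpo (113, 47.9, 104 and 78.4 CPM). The 8 mast cell markers summed to 81.6 to 108 CPM in Mac and to 23.5 to 44.9 in E-Mac, with Mcpt4 and Tpsb2 at 0 throughout. Their part in these results was not tested. Over the family, E-Mac 2 and 4 both lay above E-Mac 1 and 3 in 14 members, both below in 12, and neither in 18.

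**Figure D3:**
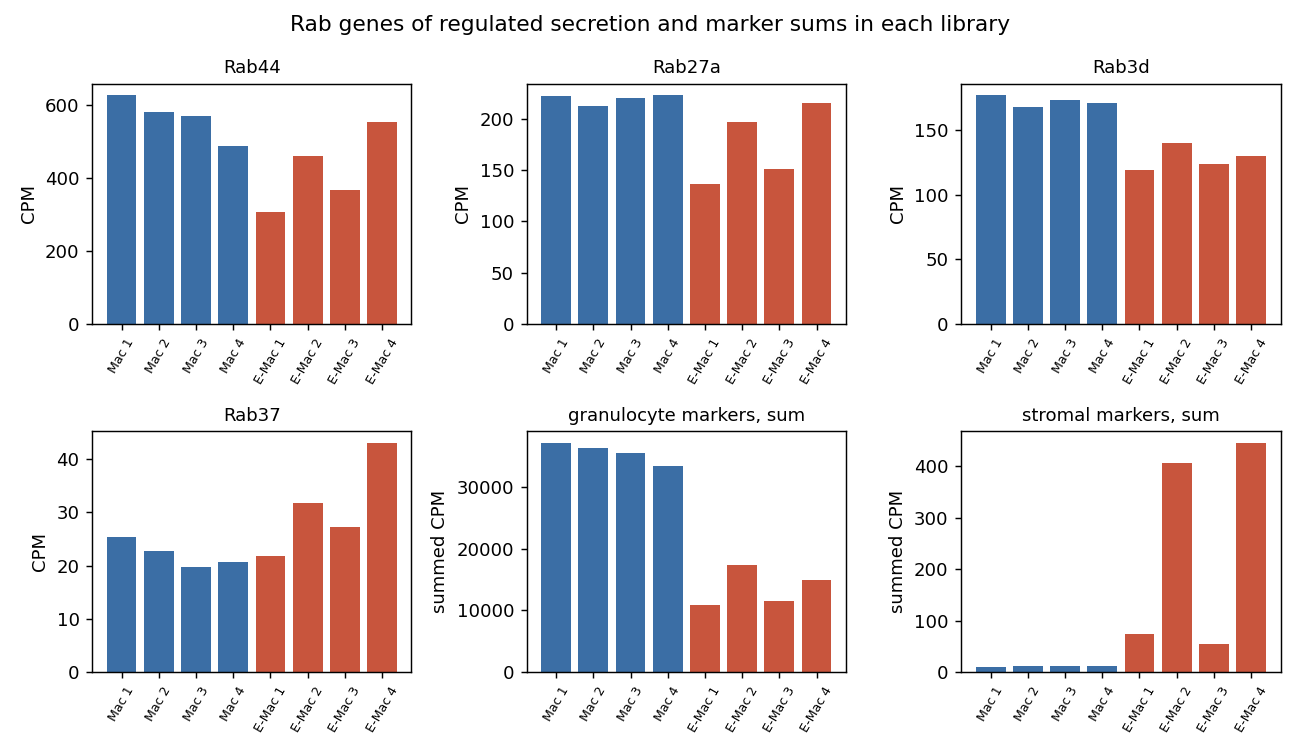
CPM of Rab44, Rab27a, Rab3d and Rab37, and the summed CPM of 17 granulocyte and 16 stromal markers, 1 bar a library (Mac blue, E-Mac red, axes from 0). In all 4 genes E-Mac 2 and 4 stand above E-Mac 1 and 3, least so in Rab3d, as they do in both marker sums.

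Of the 4 members that serve transport to the plasma membrane 3 rose (75% called, against 58.3% of all genes). Rab8b had 245, 258, 251 and 248 CPM in Mac and 479, 499, 467 and 435 CPM in E-Mac. The groups were tight and far apart (0.91 ± 0.07, 1.88-fold, adjusted p = 8.45e-08). Its paralog Rab8a rose less, from 178 ± 8.10 to 222 ± 12.0 CPM (0.32 ± 0.07, adjusted p = 0.00112). Rab8b made up 59.3, 58.1, 58.0 and 57.2% of the pair's transcripts per kb in the 4 Mac libraries, in order, and 69.7, 67.8, 67.7 and 65.5% in E-Mac 1 to 4. Rab10, which moves carriers from the Golgi and endosomes to the surface, had 116, 128, 124 and 118 CPM in Mac and 149, 151, 146 and 130 in E-Mac. Its groups were separated by a small step (0.24 ± 0.07, adjusted p = 0.00821). The call was lost with upper-quartile factors (0.14, adjusted p = 0.0723) and when libraries were scaled by totals alone (0.10, adjusted p = 0.2). Rab13, low in both groups, was at 1.62 ± 0.504 and 2.01 ± 0.535 CPM and did not pass.

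Among 6 recycling members 2 rose and none fell (33.3% called, against 58.3% of all genes). Rab11a, the central Rab of recycling endosomes, had 81.4, 91.4, 89.7 and 79.8 CPM in Mac and 135, 132, 138 and 117 CPM in E-Mac. Each E-Mac library was higher (0.61 ± 0.07, adjusted p = 1.2e-05). Its paralog Rab11b averaged 116 ± 5.67 CPM in Mac against 106 ± 5.97 in E-Mac and missed the threshold (-0.14 ± 0.07, adjusted p = 0.0953). It passed with upper-quartile factors (-0.23, adjusted p = 0.0108), with totals alone (-0.28, adjusted p = 0.0023) and in the fit without E-Mac 2 and 4 (-0.20, adjusted p = 0.0115). Rab11a made up 60.2, 60.7, 61.9 and 57.4% of the pair per kb in Mac and 73.9, 70.9, 73.2 and 68.5% in E-Mac. By raw counts, without gene length, the mean share of Rab11a was 42.4% in Mac and 55.2% in E-Mac. Rab35, a fast-recycling Rab, rose slightly (0.18 ± 0.06, adjusted p = 0.0167). That call was lost with upper-quartile factors (0.09, adjusted p = 0.232) and totals alone (0.04, adjusted p = 0.59).

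Rab14, which links the Golgi with endosomes, had 261, 244, 244 and 262 CPM in Mac and 248, 251, 245 and 236 in E-Mac. The libraries of the groups were interspersed (-0.04 ± 0.06, adjusted p = 0.559), although totals alone gave -0.19 (adjusted p = 0.0179). Of the fast-recycling pair, Rab4b averaged 5.45 ± 0.772 CPM in Mac against 7.04 ± 1.30 in E-Mac, and Rab4a 1.29 ± 0.134 against 0.847 ± 0.421 CPM. Neither passed (adjusted p = 0.0836 and 0.173), but Rab4b did without E-Mac 4 (0.46, adjusted p = 0.0449). A same-strand readthrough model, Gm21983, shares 65.0% of the Rab4b exon bases and was listed at 0 counts in each library.

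Of the 11 ER and Golgi members 5 rose and 2 fell (63.6% called, against 58.3% of all genes). Rab1a, needed for transport from the endoplasmic reticulum to the Golgi, had 189, 198, 191 and 203 CPM in Mac and 392, 340, 400 and 296 CPM in E-Mac. The groups were well separated, with E-Mac 4 lowest in its own (0.87 ± 0.09, adjusted p = 3.03e-06). Rab1b, its paralog, rose less (0.36 ± 0.08, adjusted p = 0.00129). Rab1a made up 43.2, 41.4, 40.3 and 40.1% of the pair per kb in the 4 Mac libraries, in order, and 50.4, 49.7, 52.0 and 47.1% in E-Mac 1 to 4.

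Rab2a, a Golgi Rab that also acts in lysosome fusion, had 114, 117, 110 and 127 CPM in Mac and 139, 154, 144 and 137 in E-Mac. It rose with groups that did not overlap (0.29 ± 0.07, adjusted p = 0.00226; 0.15 with totals alone, adjusted p = 0.0656). Rab18, a Rab of the endoplasmic reticulum and lipid droplets, rose by 0.41 ± 0.06 (adjusted p = 0.000101). Rab6a, which acts in traffic within and from the Golgi, rose by 0.17 ± 0.07 (adjusted p = 0.04). That call was lost with upper-quartile factors (0.08, adjusted p = 0.343) and totals alone (0.03, adjusted p = 0.727). The opposite-strand gene Mrpl48 (222 to 370 counts in a library) shares 19.0% of the Rab6a exon bases. Rab6a also missed the threshold without Mac 2, Mac 3, Mac 4 or E-Mac 2 (adjusted p = 0.0512 to 0.121). Its rare paralog Rab6b had 2.55, 1.91, 2.89 and 2.90 CPM in Mac and 1.25, 1.86, 0.808 and 2.52 in E-Mac (-0.68 ± 0.32, adjusted p = 0.0887). Rab6b passed only where E-Mac 4 was left out (-0.97, adjusted p = 0.02), where E-Mac 2 and 4 were (-1.33, adjusted p = 0.00421), and with totals alone (-0.82, adjusted p = 0.0447).

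Rab36, a little-studied Golgi Rab reported to affect where late endosomes and lysosomes sit in the cell, had the largest fall. It stood at 11.9, 11.6, 11.3 and 11.5 CPM in Mac and at 0.546, 0.344, 1.62 and 1.15 CPM in E-Mac. All E-Mac libraries were far lower (-3.64 ± 0.29, 12.4-fold, adjusted p = 2.22e-07). The E-Mac values rest on 7, 5, 24 and 16 counts, against 139 to 191 in Mac, and the value was -3.34 to -4.07 under the alternatives. The gene lies on chromosome 10, 75037058 to 75054748 (mm10, plus strand), with no other annotated exon over its own. It was the only member that met the sum of 80 through Mac and not through E-Mac, so its inclusion was not independent of its level in Mac.

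Rab43, another Golgi Rab, had 12.7, 12.5, 12.5 and 14.6 CPM in Mac and 7.87, 8.60, 9.63 and 9.20 in E-Mac. The groups did not overlap (-0.56 ± 0.12, adjusted p = 0.0012). A same-strand gene model, Gm45140, covers 75.4% of the Rab43 exon bases and had 3 to 9 counts in a library, so reads of the shared part may be missing from either. Rab19, Rab2b and Rab33b did not pass, nor did the members Rab23, Rab28 and Rab40c, placed in none of these compartments. Some settings did call Rab19 (0.58 without E-Mac 2 and 4, adjusted p = 0.00378, and 0.44 without E-Mac 4, adjusted p = 0.0364) and Rab28 (-0.28 with totals alone, adjusted p = 0.0236). Rab40c, whose groups did not overlap (adjusted p = 0.0583), passed with a filter of 1 CPM in 4 libraries (0.26, adjusted p = 0.0478).

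**Figure D4:**
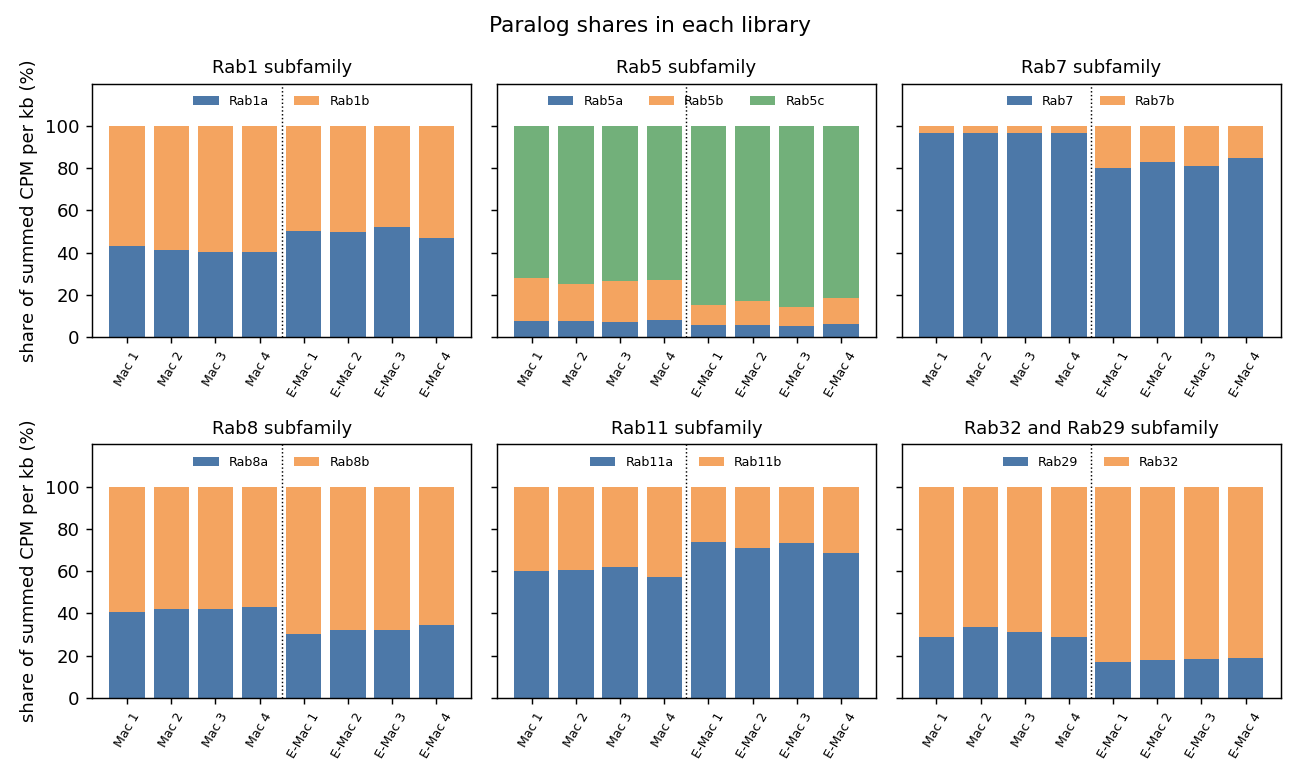
Share of each paralog in the summed CPM per kb of its subfamily, 1 stacked bar a library, Mac left and E-Mac right of the dotted line. In E-Mac the shares of Rab1a, Rab5c, Rab7b, Rab8b, Rab11a and Rab32 are all above their range in Mac; shares were not tested.

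In Rab32 and its relative Rab29 the shift was of the same kind, with Rab32 at 66.6 to 71.1% of the pair per kb in Mac and 81.1 to 83.1% in E-Mac. Other subfamilies kept one dominant gene in both groups. Rab2a made up 99.4 ± 0.11% and 99.4 ± 0.068% of Rab2 transcripts per kb (n = 4 each), and Rab3d 96.0 ± 0.091% and 95.2 ± 0.58% of Rab3. Rab31 held 81.8 ± 1.3% in Mac and 82.8 ± 0.59% in E-Mac of its sum with Rab22a.

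The genes that load, unload, carry and read out Rabs were taken from 4 lists. Of their 113 tested genes 40 rose and 19 fell (52.2% called). Of all genes tested 58.3% were called, 29.5% higher and 28.8% lower in E-Mac. Without E-Mac 2 and 4 the counts of the 4 lists were 41 and 29. With upper-quartile factors 33 rose and 27 fell, and with totals alone 29 and 31. In the escort and prenylation list 3 of 8 rose and 2 fell (62.5% called, median -0.01). The 2 Rab escort protein genes went opposite ways. Chml had 29.7, 25.6, 25.2 and 28.2 CPM in Mac and 14.8, 10.2, 14.5 and 12.9 in E-Mac (-1.05 ± 0.12, adjusted p = 8.89e-06). Chm rose (0.51 ± 0.13, adjusted p = 0.00371). Its E-Mac libraries 1 to 4 held 57.7, 76.1, 47.8 and 73.1 CPM. Without E-Mac 2 and 4 its value was 0.24 (adjusted p = 0.0152). Rabac1, a Rab acceptor, rose (0.47 ± 0.08, adjusted p = 0.000203).

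Of 34 tested exchange factors 13 rose and 7 fell (58.8% called, against 58.3% of all genes, median 0.13). Rab3il1, an exchange factor of Rab8 and Rab3 family proteins, had 6.09, 6.49, 7.92 and 5.86 CPM in Mac and 78.3, 51.9, 75.4 and 37.4 CPM in E-Mac. It rose most of the list (3.20 ± 0.24, adjusted p = 1.03e-06). Ric1, part of an exchange complex for Rab6, had 38.2, 35.0, 39.3 and 42.5 CPM in Mac and 119, 117, 115 and 105 in E-Mac (1.56 ± 0.08, adjusted p = 1.83e-09). Rin2, an exchange factor of Rab5, rose from 109 ± 2.65 to 270.2 ± 46.8 CPM (1.31 ± 0.11, adjusted p = 3.36e-07), and Dennd2a, one of Rab9, rose by 1.58 ± 0.11 (adjusted p = 5.95e-08). The groups did not overlap in any of these 4.

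Of 34 tested GAP genes 12 rose and 6 fell (52.9% called, against 58.3% of all genes, median 0.00). Tbc1d5, a GAP that acts on Rab7, had 64.3, 61.7, 66.3 and 66.8 CPM in Mac and 44.4, 43.2, 41.2 and 44.1 in E-Mac. All E-Mac libraries were lower (-0.58 ± 0.07, adjusted p = 6.57e-06). Tbc1d8 fell by about 2-fold (-0.98 ± 0.12, adjusted p = 2.49e-05), while Tbc1d1, known from glucose transporter traffic, and Tbc1d9 rose (0.67 ± 0.08 and 0.79 ± 0.12, adjusted p = 8.61e-06 and 9.81e-05).

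Effectors gave 12 rises and 4 falls among 37 tested genes (43.2% called, against 58.3% of all genes, median 0.09). Eea1, the tether of early endosomes that binds Rab5, had 68.7, 69.4, 63.0 and 67.1 CPM in Mac and 178, 158, 154 and 140 CPM in E-Mac. It more than doubled, without overlap (1.23 ± 0.08, adjusted p = 2.37e-08). Rilpl2, an adaptor that binds Rab8 and Rab10, rose by 1.54 ± 0.10 (adjusted p = 3.1e-08). Rab11fip5, which binds Rab11, rose by 1.26 ± 0.10 (adjusted p = 1.73e-07), and Plekhm1, a Rab7 effector in lysosome fusion, by 0.54 ± 0.06 (adjusted p = 6.23e-06). Each of these 4 was higher in all E-Mac libraries than in all Mac libraries. The 4 genes of the effector list that fell were Rilp (-1.24 ± 0.33), Appl1 (-0.51 ± 0.09), Rabep2 (-0.50 ± 0.09) and Cracr2a (-0.57 ± 0.16). Their edgeR adjusted p were 0.00561, 0.000198, 0.000273 and 0.00765, in that order. Rilp is an adaptor between Rab7 and dynein, and Appl1 and Rabep2 are Rab5 effectors. The level of Rilp was low, at 2.08 to 3.07 CPM in Mac and 0.575 to 1.62 CPM in E-Mac. These 4 were named after their values were seen.

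Below the sum of 80 stood 15 further Rab symbols, of which Rab17 and Rab9b had 0 counts in all 8 libraries. Rab38 had 15, 10, 14 and 22 counts in Mac and 6, 2, 2 and 4 in E-Mac. Rab34, of macropinosomes and lysosome positioning, had 0, 0, 2 and 0 counts in Mac and 6, 8, 8 and 6 in E-Mac. Rab27b, the paralog of Rab27a, had 6 counts in Mac and 10 in E-Mac. These low rows are given as counts and carry no test here.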

How the data were processed

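PolyA RNA of 4 Mac and 4 E-Mac libraries was analysed. The authors deposited 1 table of raw counts per gene symbol. HISAT2, featureCounts from Subread, bcl2fastq and DESeq2 are listed in the submitters' processing notes, as is the build mm10. Their annotation release, strand option and handling of multi-mapped reads: not given in the sources used here. Of 53673 names 26 had the form of dates and were left out (0.133 to 0.160% of a library's counts). Of counts from 1 to 10, 62.3% were even (8395 values of 1, 15311 of 2), so counts may come in pairs; counts near the limit rest on fewer fragments than their number.

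The test was edgeR's robust quasi-likelihood fit of the group (version 4.0.16, R 4.3.3) with TMM factors, after filterByExpr at its defaults (count 10, total 15), with Benjamini-Hochberg adjustment over 13412 genes and a threshold of 0.05. It was checked on simulated data. The standard error is the log2 fold change divided by the square root of F. Exon lengths, places and overlaps came from GENCODE M21 (mm10), promoters from RefSeq (GRCm38.p6). Members and lists were chosen with earlier results of these data known. The rule for named genes was the 10 largest called increases and decreases at 1 CPM or more, 14 fixed genes, the ends of the order of levels, and the 4 genes of smallest adjusted p of each regulator list. A gene of the escort and prenylation list is not reported here. Replicate numbers did not pair the libraries (correlations -0.106 to 0.028). Alternatives were RLE, upper-quartile and no factors, 2 other filters, DESeq2 1.42.0, limma 3.58.1 voom, the replicate block, no robust option, a threshold of 0.01, a test against 1.5-fold, each library left out, and E-Mac 2 and 4 left out.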

Additional observations from a re-analysis of the deposited data

Results flagged for a closer look

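In 120 groups of 4 libraries (44 members and 16 regulators and effectors, each in Mac and E-Mac), 3 held a library far from the other 3 by Dixon's criterion, which chance gives in about 1 in 20 groups. Rab31 was 167 CPM in E-Mac 4 against 190 to 194 in the others. Rab43 was 14.6 CPM in Mac 4 against 12.5 to 12.7. Dennd2a, an exchange factor of Rab9, was 12.4 CPM in Mac 4 against 10.9 to 11.2. Each of the 3 genes had groups that did not overlap.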

How the results depend on the processing

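Over 20 alternatives, the 28 members past the threshold kept their direction in each, and DESeq2, limma-voom and the fit without the robust option called the same 28. Scaling by totals alone gave 13 members higher and 12 lower, and 31 regulators and effectors lower. With no filter 4 members were lower, as at an adjusted p under 0.01. Testing for more than 1.5-fold left 6 members higher and 1 lower, 11 and 5 regulators and effectors, and 1490 and 1478 of all genes. Without E-Mac 2 and 4, 29 regulators and effectors were lower. With each library left out, 18 to 21 members were higher and 4 to 8 lower. A stricter test calls fewer genes by construction, and the cause of the other moves was not tested. The replicate block gave 18 higher and 7 lower members in place of 21 and 7, losing Rab6a, Rab37 and Rab39, and 3768 and 3690 of all genes; 1 of 4 Mac libraries correlated best with its own number. Members near no change turned sign without passing. Rab9 (0.00) was 0.00 with RLE, 0.03 with no filter, 0.01 with a filter of 1 CPM in 4 libraries, 0.01 with DESeq2, 0.15 without E-Mac 2 and 4, and -0.06 to 0.10 with single libraries left out. Rab23 (0.05) was -0.05 with upper-quartile factors, -0.10 with totals alone, -0.14 without E-Mac 2 and 4, and -0.07 to 0.18 with single libraries left out. Rab21 was -0.01 with totals alone, and Rab33b (-0.04) was -0.11 to 0.06 with single libraries left out. Depth limits Rab2b, Rab4a, Rab6b, Rab13, the effector gene Rilp and the E-Mac level of Rab36.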
